A study of Caenorhabditis elegans with 2 samples.

Results

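Chromatin immunoprecipitation with sequencing placed GFP-tagged B0261.1 at 113 of the 131 nuclear tRNA genes of Caenorhabditis elegans that decode glycine, alanine and proline. These genes were taken from the RefSeq annotation of build WBcel235 (ce11) by the listed product: 55 genes for tRNA-Gly, 34 for tRNA-Ala and 42 for tRNA-Pro, of 612 nuclear tRNA genes in all. B0261.1 is named vep-1 in the annotation, and its product is listed there as a Myb-like domain protein; Myb-like domains often bind DNA. Both samples were whole worms of strain OP662 (unc-119(tm4063) III; wgIs662), in which the transgene wgIs662 supplies B0261.1 with GFP and FLAG at its C terminus in an unc-119(tm4063) background. They were young adults of mixed sex, collected 64 hours after starved L1 larvae obtained by bleaching were released. The description names an antibody against GFP, while the antibody field names B0261.1. The 2 biological replicates, numbered 1 and 3, came from 1 transgenic line and form 1 group, so conditions could not be compared. Cell types were not resolved in whole worms, and control libraries were not analysed here.

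tRNA genes are transcribed by RNA polymerase III from promoter elements that lie inside the gene, the A box and the B box. The factor TFIIIC binds these boxes and places TFIIIB just upstream of the first base, where TFIIIB recruits the polymerase. tRNAs of an isotype carry the same amino acid, and their genes fall into isoacceptors that read different codons through their anticodons. Worm tRNA genes are scattered over all chromosomes, often in introns of other genes, and many are identical copies.

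Each value below comes from the authors' lists of regions: the peaks that passed IDR (a rule that keeps regions ranked alike in replicates), 30000 regions of the pooled replicates, 23931 of replicate 1 and 30000 of replicate 3. A gene was said to have a peak when the summit of an IDR peak lay within 100 bp of it, and its signal is the deposited signal value of the strongest such peak. The signal has no stated unit and was compared within a list. The exception is pooled values set beside the lowest IDR signal, as both lists have the same highest signal, 15652. For each replicate, as many of its regions of highest signal were used as there are IDR peaks. The files give no read depth, so its effect on precision is unknown and the 95% Wilson intervals cover counting of genes only. In each of the 4 lists the closest summits were 199 bp apart, so genes nearer to each other than that often could not each receive a summit of their own.

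Sequences shown here, from the RefSeq assembly, serve to compare frequent copies with variants that differ in peak. Each is given 5′ to 3′ along the gene. Capitals mark the A box pattern GNNNANNGG, where it starts at base 8 to 13, and the B box pattern GNTCNANNC, where it lies in the last 30 bases; both were searched on the gene strand only. The variants were chosen after their values were seen. F34H10.t1 (chrX:9637852-9637923, minus strand) represents 15 identical tRNA-Ala genes of anticodon AGC. C43G2.t2 (chrIV:6562202-6562273, plus strand), K09C6.t1 (chrV:857325-857396, plus strand) and M03A1.t2 (chrII:4565016-4565087, minus strand) share its anticodon. F15G9.t1 (chrX:9743589-9743660, plus strand) represents 8 identical tRNA-Ala genes of anticodon TGC.
F34H10.t1: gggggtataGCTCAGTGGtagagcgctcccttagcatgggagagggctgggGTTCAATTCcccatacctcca
C43G2.t2: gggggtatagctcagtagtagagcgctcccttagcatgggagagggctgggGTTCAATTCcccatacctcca
K09C6.t1: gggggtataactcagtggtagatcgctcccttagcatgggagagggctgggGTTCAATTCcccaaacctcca
M03A1.t2: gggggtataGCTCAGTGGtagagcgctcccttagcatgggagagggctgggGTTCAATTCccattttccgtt
F15G9.t1: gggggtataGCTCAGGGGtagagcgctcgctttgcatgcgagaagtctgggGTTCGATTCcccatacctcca

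F46G11.t2 (chrX:5801211-5801282, minus strand) represents 24 identical tRNA-Pro genes of anticodon TGG. K12H4.t1 (chrIII:8069405-8069476, plus strand) and ZK970.t3 (chrII:10304771-10304842, minus strand) are variants of it. C16B8.t2 (chrX:3970096-3970167, plus strand) had the highest signal of the tRNA-Pro genes of anticodon AGG.
F46G11.t2: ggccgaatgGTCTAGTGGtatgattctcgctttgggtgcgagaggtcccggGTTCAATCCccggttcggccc
K12H4.t1: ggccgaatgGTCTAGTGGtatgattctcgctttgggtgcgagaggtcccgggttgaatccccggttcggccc
ZK970.t3: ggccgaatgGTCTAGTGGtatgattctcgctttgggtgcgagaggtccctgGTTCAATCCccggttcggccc
C16B8.t2: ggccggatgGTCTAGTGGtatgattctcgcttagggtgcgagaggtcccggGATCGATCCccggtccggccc

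The tRNA-Gly genes shown are variants with a sequence of their own. R04E5.t1 (chrX:8819681-8819752, plus strand), C28G1.t2 (chrX:8846721-8846792, plus strand) and C31E10.t1 (chrX:14010253-14010324, plus strand) have the anticodon TCC, and Y59A8B.t3 (chrV:17931078-17931146, plus strand) has GCC.
R04E5.t1: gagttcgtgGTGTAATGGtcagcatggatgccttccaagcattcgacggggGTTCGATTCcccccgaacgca
C28G1.t2: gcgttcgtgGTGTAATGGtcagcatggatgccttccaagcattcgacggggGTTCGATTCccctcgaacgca
C31E10.t1: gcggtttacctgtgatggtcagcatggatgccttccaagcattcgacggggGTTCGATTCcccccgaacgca
Y59A8B.t3: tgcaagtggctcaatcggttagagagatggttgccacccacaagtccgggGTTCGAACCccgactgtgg

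Many of these genes stand head to head, with their first bases facing each other across a short gap. Shown are 3 such gaps, all on the plus strand and ending at the first bases of the flanking genes, with the 11 bases centred on the IDR summit in capitals. They lie at chrX:3036048-3036163 (116 bp, between M02F4.t2 for tRNA-Glu and M02F4.t1 for tRNA-Gly), chrIII:11066920-11067026 (107 bp, between 2 tRNA-Pro genes) and chrX:5801283-5801471 (189 bp, between 2 tRNA-Pro genes).
M02F4.t2 to M02F4.t1: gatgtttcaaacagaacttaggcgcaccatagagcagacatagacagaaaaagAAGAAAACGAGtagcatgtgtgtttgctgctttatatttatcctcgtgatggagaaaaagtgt
W09D6.t2 to W09D6.t1: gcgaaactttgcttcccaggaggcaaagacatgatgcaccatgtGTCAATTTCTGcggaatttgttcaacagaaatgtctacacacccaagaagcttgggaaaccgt
F46G11.t2 to F46G11.t1: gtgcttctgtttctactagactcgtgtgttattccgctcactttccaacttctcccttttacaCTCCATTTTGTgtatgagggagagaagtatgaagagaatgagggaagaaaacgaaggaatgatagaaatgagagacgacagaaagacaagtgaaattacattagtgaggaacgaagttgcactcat

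The share of genes with a peak was close to that of tRNA genes as a whole. A peak was found at 113 of 131 genes (86.3%, 95% Wilson interval 79.3 to 91.1%), against 85.4% of the 481 other nuclear tRNA genes and 85.6% of all 612. At the starts of 19971 protein-coding genes the same distance gave a peak at 0.32%. In the strongest regions of replicate 1, 110 of 131 genes had a region, against 84.6% of all nuclear tRNA genes. In those of replicate 3, 110 of 131 also had one, against 85.6% of all. The share was thus 84.0% in each replicate, and 104 genes had a region in both. By isotype, 45 of 55 tRNA-Gly genes (81.8%, interval 69.7 to 89.8%), 30 of 34 tRNA-Ala genes (88.2%, 73.4 to 95.3%) and 38 of 42 tRNA-Pro genes (90.5%, 77.9 to 96.2%) had a peak. These intervals overlap each other and that of the other tRNA genes, so the shares were not told apart by counting.

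**Figure D1:**
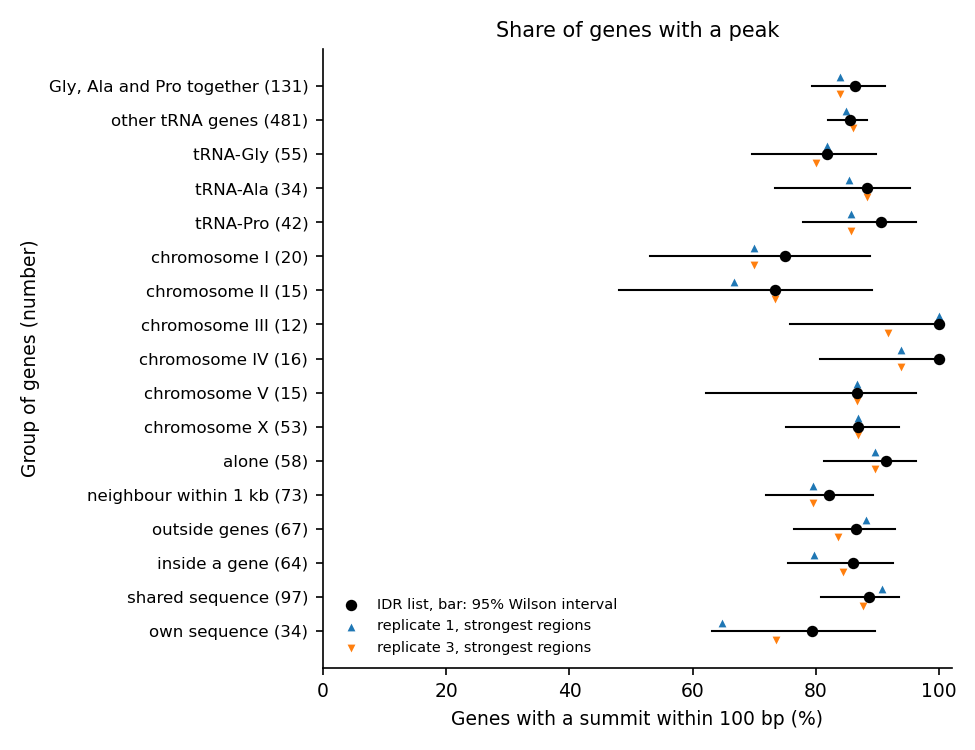
The x axis gives the percent of genes with a summit within 100 bp, and the y axis the group of genes with its number. Black points are the IDR list with 95% Wilson intervals, blue and orange triangles the strongest regions of replicates 1 and 3; the point for the 131 genes (86.3%) lies beside that for the other tRNA genes (85.4%).

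The genes with a peak rested on fewer summits than genes. The 113 genes shared 101 distinct strongest summits, since 24 of them had the same summit as another gene of the 3 isotypes. For 26 genes the strongest summit also lay within 100 bp of another tRNA gene, and its signal cannot be divided between them. Near-identical copies add a further limit: 97 genes had an identical copy elsewhere, and the 131 genes held 42 different sequences. In 99 genes no sequence of 31 bases occurred once in the genome, so reads inside those genes could come from any copy. Whether the authors' lists used reads that map to several places was not stated in the sources used here. The flanks were more distinct: for 85 genes over 90% of the 31-base sequences in the 200 bp upstream occurred once.

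Signal was lower at tRNA-Pro genes than at the other 2 isotypes in each list. In the IDR list the median signal of genes with a peak was 2443 for tRNA-Gly, 2695 for tRNA-Ala and 1375 for tRNA-Pro, against 2634 for the other nuclear tRNA genes. In replicate 1 the medians were 442, 453 and 295, against 470 for the other tRNA genes. In replicate 3 they were 2060, 2176 and 1172, against 2209. Relative to the other tRNA genes, tRNA-Pro stood at 0.58 ± 0.07 (mean ± SD over the 2 replicates, n = 2), tRNA-Gly at 0.94 ± 0.0058 and tRNA-Ala at 0.97 ± 0.015. The tRNA-Pro median was the lowest in each replicate and in the IDR list among isotypes with more than 1 gene. The ranges overlapped widely, from 211 to 7683 for tRNA-Pro, from 276 to 15652 for tRNA-Gly and from 348 to 9468 for tRNA-Ala. With 1 group of 2 samples and genes that are not replicates, no test of this difference was made.

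The median signals of the isoacceptors differed within each isotype, while the ranges of their genes overlapped. Among tRNA-Pro genes, those of anticodon TGG (28 of 32 with a peak) had a median signal of 1360 and those of AGG (6 of 6) of 970, whereas the 4 genes of CGG had 2931. The AGG genes ranged from 211 to 5031, and C18A11.t1 among them had no region within 100 bp in the whole list of either replicate. The CGG genes ranged from 1134 to 4610, within the range of TGG. For TGG the ratio to the other tRNA genes was 0.47 in replicate 1 and 0.53 in replicate 3. For AGG it was 0.73 over 5 genes and 0.68 over 4, and for CGG 1.10 and 1.12 over 4 genes each. Among tRNA-Ala genes, the 4 genes of CGC had the highest median at 3828, with 2442 for AGC (19 of 22 with a peak) and 2575 for TGC (7 of 8). The CGC genes ranged from 2851 to 4571 and overlapped both of the other anticodons. Among tRNA-Gly genes, GCC (14 of 16) had a median of 2666 and TCC (31 of 36) of 2355. The GCC genes ranged from 276 to 5652 and the TCC genes from 472 to 15652. Of the TCC genes 20 of 36, and of the TGG genes 20 of 32, stand head to head, where some summits are shared by both genes.

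None of the 3 tRNA-Gly genes of anticodon CCC had a peak. They are identical, 83 bp long against 72 bp for most of the others, and lie in introns of pash-1 on chromosome I as T22A3.t2, T22A3.t3 and T22A3.t4. None had a region within 100 bp in the pooled list or in either replicate's whole list. The nearest IDR summits lay 7817 to 10818 bp away. None of the 3 genes holds a 31-base sequence that occurs once in the genome. The share of such sequences was 16.5% in the 200 bp upstream of T22A3.t4, 57.6% for T22A3.t2 and 58.8% for T22A3.t3, and downstream it was 80.6%, 35.3% and 0%. The part of mapping in the missing regions was not tested. With 0 of 3 genes, the Wilson interval reaches 56.1%. All 3 hold the A box and B box patterns. Nematode tRNA-Gly genes of this anticodon with a long variable arm are known as nematode-specific V-arm-containing tRNAs.

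**Figure D2:**
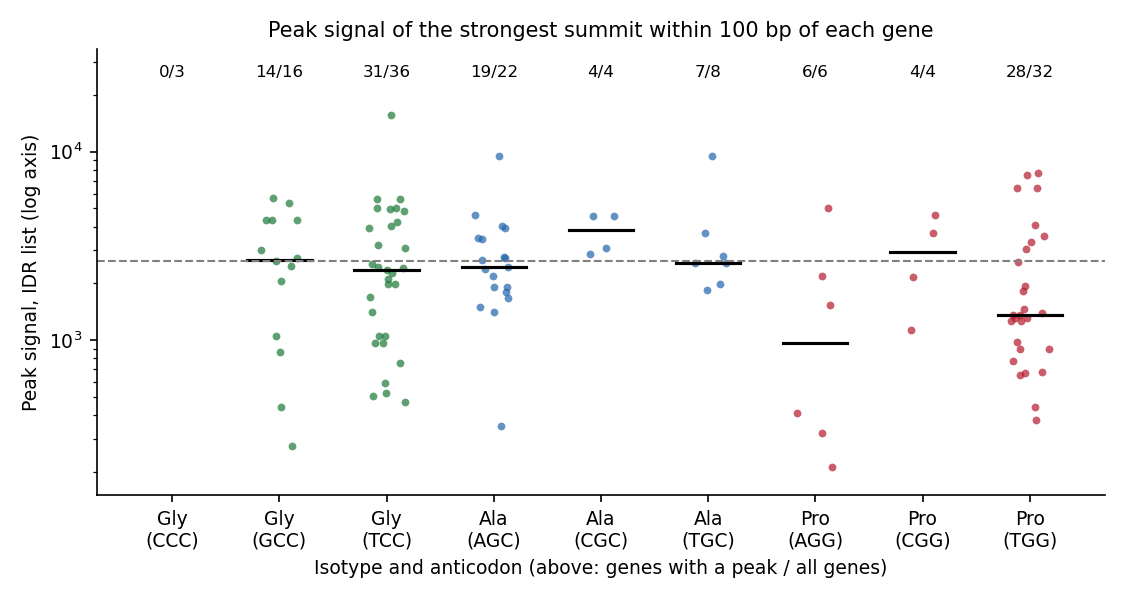
Each point is a gene with a peak, placed by isotype and anticodon on the x axis and by IDR signal on a log y axis; black bars are medians, the dashed line is the median of the other tRNA genes (2634), and the counts above are genes with a peak of all genes. The bars for Pro TGG (1360) and Pro AGG (970) lie below the line, and Gly CCC has no point.

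The strongest tRNA-Gly gene was M02F4.t1 on X, with a signal of 15652 in the IDR list, 2749 in replicate 1 and 13125 in replicate 3, first in rank in all 3 lists. Its summit lay in the gap shown above, 58 bp from its first base and 59 bp from that of M02F4.t2, so the peak belongs to both genes. F17H10.t1, a gene of anticodon GCC in an intron of snx-17, followed at 5652, with 1027 in replicate 1 and 4730 in replicate 3. T10B10.t1 and T10B10.t2 shared a summit of 5593, with 830 and 4840 in replicates 1 and 3. T03G6.t1, of anticodon GCC, reached 5316, with 1014 and 4385. The gap between M02F4.t1 and the next gene was larger than any other step among the 5 strongest.

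The strongest tRNA-Ala genes were F15G9.t1 and F15G9.t2, which lie 86 bp apart on X, within an intron of him-4, and point the same way. They shared a summit of signal 9468, with 1639 in replicate 1 and 8031 in replicate 3. That summit lay 78 bp after the first base of F15G9.t1, past its end, and 80 bp before that of F15G9.t2. F34H10.t1 had 4598, with 864 and 3847 in replicates 1 and 3. F44A2.t1 had 4571 and K06A4.t1 4562, both of anticodon CGC and both on V. The 3 last genes were close to each other in both replicates, within 807 to 864 in replicate 1 and 3822 to 3847 in replicate 3.

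Among tRNA-Pro genes T23F1.t2 came first with 7683, with 1448 in replicate 1 and 6491 in replicate 3. Its summit lay 105 bp after its first base, past the end of the gene, on the side of T23F1.t1, a tRNA-Lys gene 66 bp away. F46G11.t2 had 7510, with 1237 and 6386. W09D6.t1 and W09D6.t2, in an intron of rsa-2, shared a summit of 6413, with 973 and 5553. C16B8.t2, of anticodon AGG, had 5031, with 943 and 4244. Thus the isotype of lowest median held 4 genes of 6413 or more in the IDR list, of which 3 shared the summit with another tRNA gene within 100 bp of it.

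The replicates ranked the genes alike. Over the 104 genes in both sets of strongest regions, Spearman's rho of signal was 0.97, and over the 110 with a region in both whole lists it was 0.98; genes that share a summit enter more than once. The ranks among the genes differed most for B0491.t1, a tRNA-Ala gene on II, by 39 places: its signal was 144 in replicate 1 and 1920 in replicate 3. These values belong to different summits, 98 bp after the first base in replicate 1 and 59 bp before it in replicate 3. Replicate 1 had a further summit 103 bp upstream, just outside the distance used, with a signal of 387, so the difference in rank rests on which summit was counted. C12C8.t3, a tRNA-Gly gene, differed by 20 places, with 20.8 in replicate 1 and 800 in replicate 3. Its pair's summit of replicate 1 likewise lay 103 bp from it, with a signal of 133. Among tRNA-Pro genes the largest difference was 14 places, for C16B8.t3, with 345 and 1157.

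**Figure D3:**
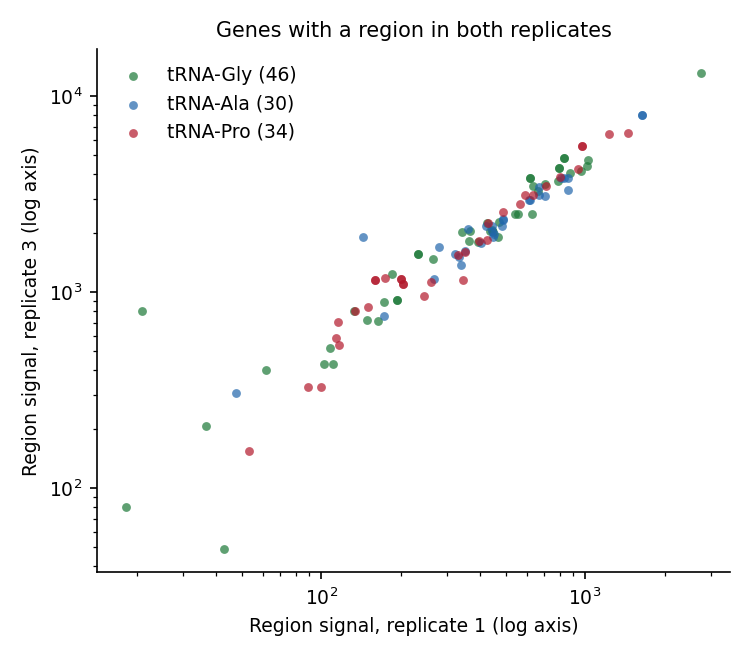
Region signal of replicate 1 (x axis) and replicate 3 (y axis), both on log axes, for the genes with a region in both whole lists: 46 tRNA-Gly, 30 tRNA-Ala and 34 tRNA-Pro genes. The points follow 1 rising band, with M02F4.t1 (2749 and 13125) at its top and C12C8.t3 (20.8 and 800) to the left of it.

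Summits lay just upstream of the genes. The median position of the nearest IDR summit was 27 bp before the first base, over the 121 genes with a summit within 300 bp, and 25 bp over the other tRNA genes. It was at −28.5 bp in replicate 1 and −27 bp in replicate 3, where negative is upstream. Of 113 genes with a peak, 96 had the strongest summit upstream of the first base. Genes outside head-to-head pairs had a median of −23 bp, the same in both replicates. Those in pairs had −58 bp, also the same in both. The other tRNA genes gave −24 and −61 bp.

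**Figure D4:**
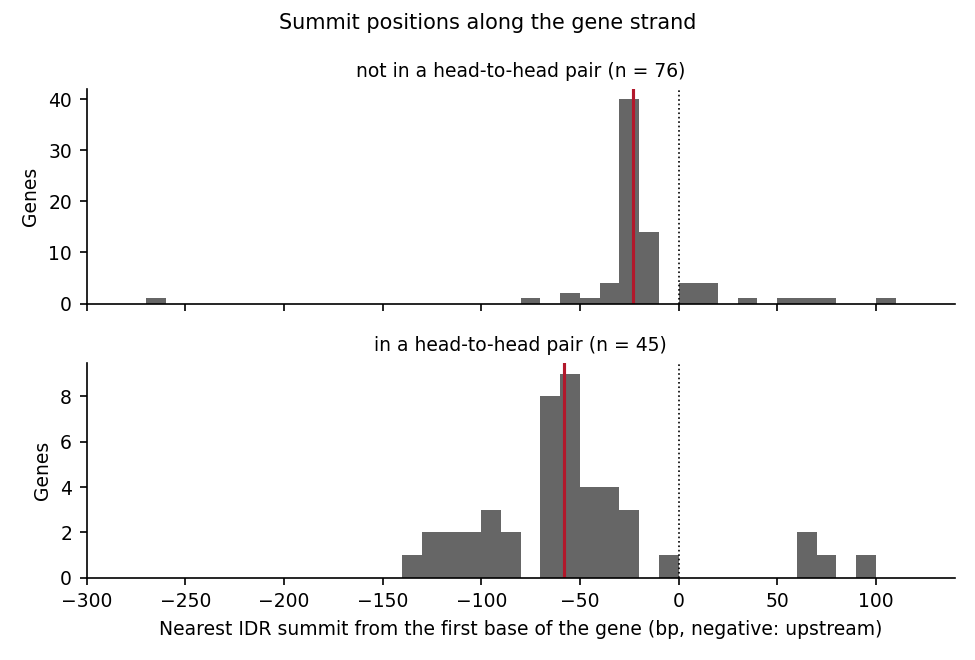
Number of genes (y axis) by the position of the nearest IDR summit along the gene strand (x axis, bp from the first base, negative upstream), in bins of 10 bp; red lines are medians and the dotted line is the first base. Genes outside head-to-head pairs (n = 76) pile up around −23 bp, and genes in pairs (n = 45) spread around −58 bp.

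Head-to-head pairs were frequent among genes of 2 isoacceptors. A pair was defined, after the data were seen, as 2 divergent tRNA genes with at most 250 bp between their first bases. Of the 131 genes 45 were in such pairs, against 6.03% of the 481 other tRNA genes (29 genes). They comprised 20 of 36 tRNA-Gly genes of anticodon TCC, 20 of 32 tRNA-Pro genes of TGG, 4 of 16 tRNA-Gly genes of GCC and 1 of 22 tRNA-Ala genes of AGC. No gene of the other anticodons was in a pair. The 45 genes made 24 pairs, of which 21 joined 2 genes of the 3 isotypes, with gaps of 98 to 208 bp (median 150). This arrangement is a fact of the genome sequence and not of the immunoprecipitation.

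Each of the 24 gaps held exactly 1 IDR summit. Replicate 1 had 1 in 22 gaps and replicate 3 in 24, and 10 of 13 pairs of other tRNA genes had 1 in the IDR list. Since 23 of the 24 gaps were shorter than the 199 bp that separate the closest summits, a second summit could hardly be called there, and a shared site and 2 unresolved sites cannot be told apart. Pairs with gaps of up to 1000 bp added 7 gaps of 199 bp or more to the 1 already counted: 6 of these 8 held 1 summit, 2 held none and none held more. The summit lay a median of 22.2 bp from the midpoint of the gap, within 25 bp in 14 of 24 pairs and 90.5 bp away in the pair of C28G1.t4 and C28G1.t5. With 1 summit in a gap, the length of the gap sets the sum of its distances from the 2 genes, though not each distance. The −58 bp above carries that limit.

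**Figure D5:**
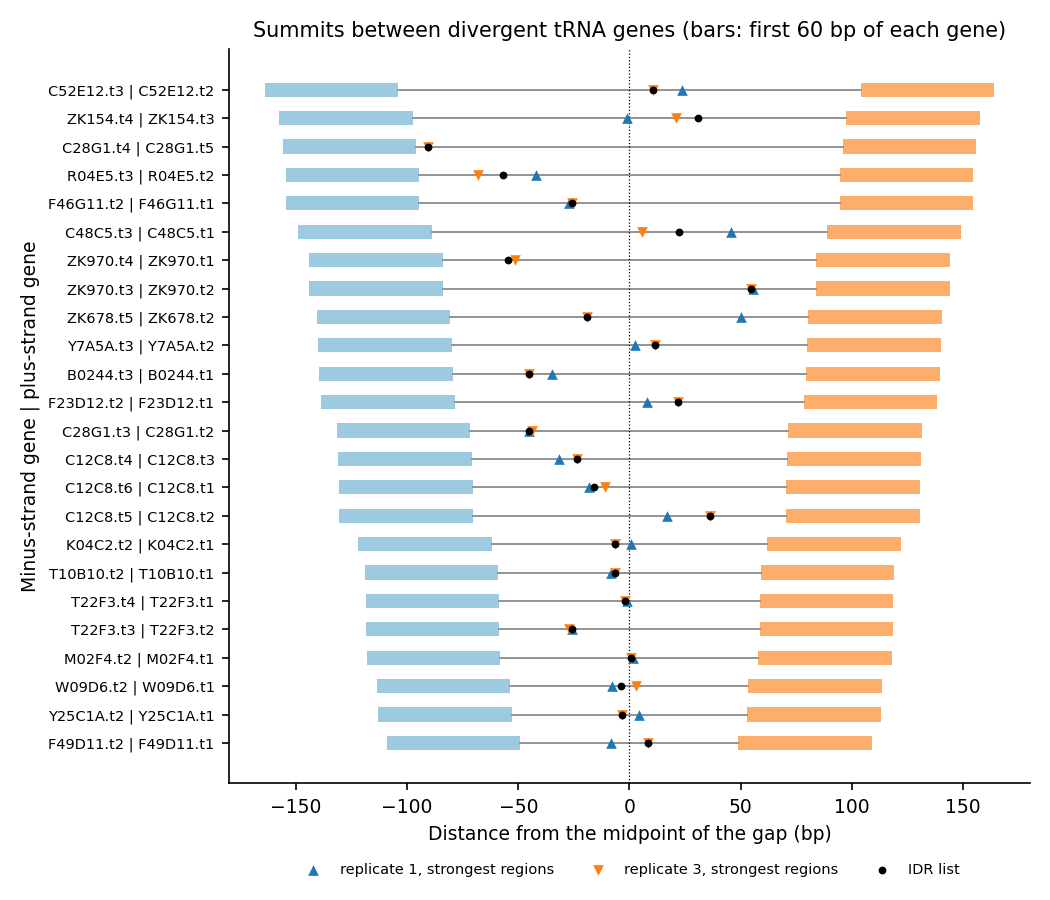
Each row is 1 of the 24 head-to-head pairs, ordered by gap length, with the first 60 bp of the minus-strand gene in blue and of the plus-strand gene in orange; the x axis is the distance from the midpoint of the gap in bp. Black points are IDR summits and triangles those of replicates 1 and 3; every gap holds 1 black point, and the M02F4.t2 and M02F4.t1 pair has its point near the midpoint.

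Signal counted within 100 bp was lower at the paired genes. The median was 1554 for the 38 of 45 paired genes with a peak and 2462 for the 75 of 86 others. For the other tRNA genes the order was opposite, 3368 for those in pairs and 2600 for the rest. Relative to all other tRNA genes, the paired genes stood at 0.49 in replicate 1 and 0.69 in replicate 3, and the genes outside pairs at 0.95 and 0.94. tRNA-Pro genes outside pairs (22 of 22 with a peak) had a median of 1680, against 1317 for those in pairs, so they were below the 2634 of the other tRNA genes without the pairs too. Upstream sequence was also less distinct at the pairs: a median of 72.9% of the 31-base sequences in the 200 bp upstream of paired genes occurred once, against 100% for the other genes of the 3 isotypes. The 100 bp distance also bears on the paired median. It leaves out 7 paired genes whose gap summits, of 976 to 7510, lay farther away. B0244.t1, R04E5.t2 and C28G1.t2 count at summits of 276, 593 and 755, while their gaps held 2615, 2102 and 2273. Summits shared by both genes of a pair enter more than once. The parts of mapping and of this counting in the lower signal were not tested.

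Chromosomes differed little beyond counting. On X 46 of 53 genes had a peak and on the autosomes 67 of 78, which are shares of 86.8% (interval 75.2 to 93.5%) and 85.9% (76.5 to 91.9%). All 12 genes on III and all 16 on IV had a peak, as did 15 of 20 on chromosome I, 11 of 15 on II and 13 of 15 on V. The other tRNA genes, with a peak at 85.4% on all chromosomes together, were not split by chromosome. Whether these differences are particular to the 3 isotypes is therefore not known. Median signal was 2532 on X and 1989 on the autosomes. The ratios to the other tRNA genes of all chromosomes were 1.00 and 0.76 in replicate 1 and 1.05 and 0.83 in replicate 3. For tRNA-Ala genes it was 3094 on X, where 13 of 13 had a peak. For tRNA-Gly genes on chromosome I it was 1230, with 12 of 17 having a peak. The 5 without one there were the 3 genes of CCC, C12C8.t5 and ZK39.t1.

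Position inside another gene did not separate genes with a peak from those without. Of 131 genes 64 lay inside a protein-coding gene, all in introns, with 33 on the same strand as the host and 31 on the opposite strand. A peak was found at 55 of the 64 (85.9%) and at 58 of the 67 outside (86.6%). Median signal was 1940 inside and 2572 outside, with ratios to the other tRNA genes of 0.75 and 0.95 in replicate 1 and of 0.72 and 1.01 in replicate 3. Among the other tRNA genes the medians were 2640 inside and 2612 outside. Among tRNA-Pro genes the level inside was lower, with 1263 on the opposite strand, 1198 on the same strand and 2601 outside. Shared summits enter these medians more than once. The summit of 1263 counts for T22F3.t4 on the opposite strand and for T22F3.t1 on the same strand. The medians of tRNA-Gly genes by host are not given here. For tRNA-Ala genes the medians were 2442 on the opposite strand and 2669 outside. The 6 tRNA-Ala genes with a peak on the same strand had 3707, from 348 to 9468, and 2 of them share the summit of the F15G9 genes.

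Genes with another tRNA gene within 1 kb and single genes had shares with a peak whose intervals overlapped. A peak was found at 60 of 73 clustered genes (82.2%, interval 71.9 to 89.3%) and at 53 of 58 single genes (91.4%, 81.4 to 96.3%). Among the other tRNA genes the counts were 122 of 163 and 289 of 318. The distance between summits in the lists limits the count of clustered genes, and its part in the difference was not tested. All 16 single tRNA-Pro genes had a peak, with a median of 1886. Single tRNA-Gly and tRNA-Ala genes had medians of 2462 and 2672.

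There were 3 runs of at least 3 genes with gaps of at most 1 kb. On chromosome I, C12C8.t5, C12C8.t2, C12C8.t4 and C12C8.t3, all tRNA-Gly genes of the same sequence, formed 2 head-to-head pairs whose summits had signals of 1408 and 968. On X, C16B8.t1, C16B8.t2 and C16B8.t3, tRNA-Pro genes pointing the same way, had 378, 5031 and 1527. The strongest and the weakest of the 3 lay 468 bp apart, and C16B8.t1 had no region in the whole list of either replicate. Also on X, R04E5.t1, R04E5.t3 and R04E5.t2, tRNA-Gly genes, had no peak, 2102 and 593. R04E5.t3 and R04E5.t2 are a head-to-head pair, and the summit of 2102 lay in their gap, 38 and 152 bp from their first bases. The 593 belongs to another summit, 62 bp after the first base of R04E5.t2. Signal within the distance used thus differed between adjacent genes of a run, but for this pair it rests on which summit was counted.

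Genes of identical sequence ranged widely in signal. Of 97 genes with an identical copy, 86 had one (88.7%, interval 80.8 to 93.5%), and of 34 with a sequence of their own 27 had one (79.4%, 63.2 to 89.7%). Among the other tRNA genes the counts were 340 of 372 and 71 of 109. The 24 identical tRNA-Pro genes of anticodon TGG ranged from 378 to 7683 in signal at the 21 with a peak. The other 3, F46G11.t1, C48C5.t3 and F23D12.t2, had an IDR summit in their head-to-head gap, 101 to 121 bp away. The 7683 is that of T23F1.t2, at a summit past its end on the side of a tRNA-Lys gene. The 378 is that of C16B8.t1, which had no region within 100 bp in either replicate. The 15 identical tRNA-Ala genes of AGC had a peak at 14, from 1498 to 9468, and the other, C52E12.t3, had a summit in its gap 115 bp away. The 9468, of F15G9.t2, is shared with F15G9.t1 of anticodon TGC. The 11 identical tRNA-Gly genes of GCC all had one, from 276 to 5652. The 276 is that of B0244.t1, at a summit past its end, 77 bp after its first base, with no region within 100 bp in replicate 3. The summit of its head-to-head gap, of 2615, lay 125 bp before it, outside the distance used. B0491.t2 shares the sequence of F15G9.t1 and had no region in any list, with the nearest IDR summit 365 bp away.

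Variants with 1 or a few base changes showed a wide range of signal. Changes are written as the base of the largest identical family of that anticodon, the position counted from the first base of the gene, and the base of the variant. Among tRNA-Ala genes C43G2.t2 (G17A) had a signal of 348, the lowest of its isotype with a peak, with 47.3 in replicate 1 and 305 in replicate 3. Its family had a median of 2744. K09C6.t1 (G10A, G23T and T65A) had no region in any list. C28A5.t3 (G1C) had 1806. M03A1.t2 differed at 8 positions and had no region, with the nearest summit 268 bp away.

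For tRNA-Gly, R04E5.t1 (C2A) had no region in any list, and ZC132.t1 (G41T) had a signal of 443. C28G1.t2 (C64T) had 755 at a summit past its end, 94 bp after its first base, while the summit of its head-to-head gap, of 2273, lay 117 bp before it. T04D3.t1 (T8G) had 522 in the IDR list, at rank 758. In replicates 1 and 3 it had 42.8 and 49.2, at ranks 1845 and 7641, in neither set of strongest regions. In the 200 bp upstream, 51.8% of the 31-base sequences occurred once for R04E5.t1, 70% for ZC132.t1 and 100% for T04D3.t1. Downstream the shares were 100%, 0% and 100%. The part of mapping in these values was not tested. The families of TCC and GCC had medians of 2493 and 2717. F10C1.t1, with 2 changes (T24A and G69A), had 4316. For tRNA-Pro, K12H4.t1 (C55G) does not hold the B box pattern and had 1833, above its family's median of 1464. T14G8.t1 (G15T) had 1390. T22F3.t4 (G63A) and T22F3.t3 (G51C) had 1263 and 1317, at summits shared with T22F3.t1 and T22F3.t2, unchanged copies that face them, so these values are not those of the variants alone. ZK970.t3 (G50T) had no peak, and the summit in its gap, of 976, lay 139 bp away.

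The A box pattern was held by 125 of the 131 genes (95.4%), by 62.8% of the other tRNA genes and, at the same place, by 1.37% of the first 72 bases of protein-coding genes. The B box pattern was held by 99.2%, 98.3% and 1.77%. ZK39.t1, which had no region in any list, counts as holding it, but by a match that starts at base 62. In the largest identical family of its anticodon, of the same length of 71 bp, the pattern starts at base 51. Whether the match in ZK39.t1 serves as a B box was not tested. A peak was found at 110 of the 125 genes with the A box pattern and at 3 of the 6 without it, C43G2.t2, T07D10.t1 and ZK678.t5, with signals of 348, 1417 and 892. The summit of ZK678.t5 lay in its head-to-head gap with ZK678.t2, which holds the pattern, 62 and 100 bp from their first bases. Its signal cannot be divided between these genes. The 3 others without the A box pattern, K09C6.t1, C31E10.t1 and Y59A8B.t3, had no peak. Among the other tRNA genes 265 of 302 with the pattern and 146 of 179 without it had a peak. The pattern fixes the number of bases between its A and its last GG. A gene with another spacing there does not hold it, so the shares above do not count genes without an A box. Y59A8B.t3 reads gctcaatcgg at this place, longer than the pattern by a base. Whether genes without the pattern have a working A box was not tested.

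The 18 genes without a peak fell into 2 kinds by the nearest summit. For 7 genes the IDR summit lay in their head-to-head gap, 101 to 139 bp away and within 199 bp: C12C8.t5, ZK154.t4, C52E12.t3, ZK970.t3, F46G11.t1, C48C5.t3 and F23D12.t2. F23D12.t2, at 101 bp, was just outside the distance used, and Y7A5A.t3, at 92 bp with a signal of 1360, just inside. Of these 7, C12C8.t5, F46G11.t1, ZK154.t4 and F23D12.t2 had a region in replicate 1, with signals of 186, 219, 633 and 430. C48C5.t3 had one in replicate 3, with 3149. The pair of F46G11.t2 and F46G11.t1 held a summit of 7510 at 69 bp from the former and 121 bp from the latter.

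For the other 11 genes the nearest IDR summit was farther than 199 bp. They were the 3 genes of CCC, 6 with a sequence of their own (ZK39.t1, M03A1.t2, K09C6.t1, Y59A8B.t3, R04E5.t1 and C31E10.t1) and 2 with an identical copy (B0491.t2 and R04E5.t4). R04E5.t4, of the largest tRNA-Gly family, had weak regions, with 36.4 in replicate 1 and 207 in replicate 3. Y59A8B.t3 had 18.2 and 80.5, and C31E10.t1 had 24.4 in replicate 3 alone. Of all 18 genes, 10 had no region within 100 bp in any list. Among the 10, C52E12.t3 and ZK970.t3 had an IDR summit in their head-to-head gap, 115 and 139 bp away.

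Genes of the enzymes that load these tRNAs and of the transcription machinery had no IDR peak near the start. Of gars-1, aars-1, aars-2, pars-1 and pars-2, which encode glycyl-, alanyl- and prolyl-tRNA synthetases, 0 of 5 had a summit from 500 bp upstream to 100 bp downstream, a window that held one at 1.84% of all protein-coding genes. Pooled regions were listed at aars-1 (113), pars-2 (97.8) and gars-1 (43.3). Of rpc-1, rpc-2, brf-1 and tbp-1, which encode RNA polymerase III subunits, a TFIIIB subunit and the TATA-binding protein, 0 of 4 had one, and rpc-2 had a pooled region of 117. All these pooled values were below the lowest signal of an IDR peak, 179.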

How the data were processed

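ChIP-seq regions of 2 biological replicates (1 group) were used as deposited. Per the file headers and the deposited file descriptions, the authors ranked peaks and background regions of each replicate and of both pooled against a control and passed them to IDR; the aligner, the caller and the threshold are not given in the sources used here. The signal per region is the authors' own deposited value, with no stated normalisation, and is not a count. The deposited summit offset, in bp, is the other value used.

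Summits were placed on tRNA genes of the RefSeq annotation (WormBase release 298) of WBcel235, which is ce11; all coordinates are 1-based. The ce10 lists were not used. Anticodons were read from the gene sequence, from the best-scoring loop of 7 bases closed by a stem of up to 5 pairs. The score favoured the last 2 anticodon bases of the listed isotype, so the reading is not independent of the annotation. The stem had 3 pairs in Y59A8B.t3 and 4 in ZC132.t1 and B0244.t3. Named were the 5 genes of highest signal per isotype, those without a peak, those in runs of at least 3 and the 3 per isotype whose ranks differed most between replicates, with further variants and weak genes chosen after their values were seen. The members and lists were chosen with earlier results of these data known. Shares carry 95% Wilson intervals, and replicate values are mean ± SD; no test was made with 1 group, and the 2 samples may differ for technical reasons. The placing of summits was tested on simulated data. Alternatives changed the distance, the list, the merging of regions, the clustering gap and the position window. Python 3 with numpy, pandas and scipy was used.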

Additional observations from a re-analysis of the deposited data

How the results depend on the processing

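Most values kept their size: of 181 values under alternatives 144 stayed within 1.5 times the main count or within 1 SD between replicates, and none changed sign. A summit within 25 bp left 56 genes with a peak (22 tRNA-Gly, 14 tRNA-Pro). Of these, 20 were clustered, 28 lay inside and 28 outside other genes, 26 on X and 30 on autosomes, and 38 had a shared sequence. A summit within 50 bp left 37 clustered genes with a peak. The share of the other tRNA genes with a peak at these distances is not given here. Whether the loss is particular to the isotypes studied is therefore not known. The median signal was 2443 with 250 bp and with 1 summit per site, 2452 with the upper 50% of IDR peaks by signal and 2273 with each summit given to its nearest tRNA gene. The ratio to other tRNA genes was 0.92, 0.91 and 0.93 with 25, 50 and 250 bp, 0.92 with that 50%, 0.87 with nearest genes and 0.91 to 0.92 with 1 replicate left out. For tRNA-Gly it was 0.96, 0.93 and 0.93 with 25, 50 and 250 bp, 0.94 with that 50% and 0.98 with 1 summit per site, and 0.93 to 0.94 with 1 replicate left out. For tRNA-Ala it was 1.07 and 1.04 with 25 and 50 bp, 0.98 with 1 summit per site and 0.96 to 0.99 with 1 replicate left out, so that isotype lay on either side of the other tRNA genes. For tRNA-Pro it was 0.53 to 0.63 with 1 replicate left out. The median position was −28.5 to −27 bp with 1 replicate left out, and −62 bp in pairs with 1 summit per site. A head-to-head limit of 150 bp, chosen after seeing the data, gave 23 genes in 12 pairs. The cause of these shifts was not tested. No paired analysis was possible because there was 1 group.

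The closest summits of each list were 199 bp apart, identical copies share reads, and depth is unknown. These limits bear on counts of clustered genes, on pairs and on the signal of copies.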
